A study of Mus musculus with 16 samples.

Results

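Apolipoproteins are the proteins that wrap, stabilise and address the lipid particles of the blood, and the liver makes most of them. Apob is the large structural protein of very-low-density lipoprotein, onto which triglyceride is loaded before secretion. Apoa1, Apoa2 and Apom travel mainly with high-density lipoprotein, Apoc1 and Apoc3 slow the clearance or hydrolysis of triglyceride-rich particles, Apoa5 favours that hydrolysis, and Apoe is the ligand through which remnant particles are taken up by receptors. The 10 genes described here are Apoa1, Apoa2, Apoa4, Apoa5, Apob, Apoc1, Apoc3, Apoe, Apoh and Apom, chosen by their gene name on the array, which carries 30214 gene names. Together they have 13 probes of 60 bases.

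The cells were AML12, a non-tumourigenic hepatocyte line derived from a male mouse that carries a human TGF-alpha transgene. One set of cultures expressed a scramble shRNA and the other an shRNA against eIF6, a translation initiation factor that acts on the large ribosomal subunit. All 4 groups shared 48 h of doxycycline to switch on the shRNA, a medium with serum, dexamethasone and the ITS reagent, and 1 h of insulin (100 nM in the sample descriptions and methods, 100 mM in the treatment protocol of the labels). RNA from sucrose gradients was divided into polysomal RNA, which sediments with several ribosomes, and subpolysomal RNA, which does not. Each of the 4 combinations of shRNA and fraction was measured on 4 one-colour Agilent arrays, 16 in all. The study's methods call the 4 replicates biological, and the labels do not say whether they came from separate infections, so the p values measure the spread between these samples.

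Between 20175 and 24950 probes per array were well above background (median 22528.5) and none held a saturated spot. Precision is limited by having 4 arrays per group. The targeted mRNA, Eif6, went from a log2 signal of 12.95 ± 0.011 (SD, n = 4) to 11.89 ± 0.084 on polysomes. In subpolysomal RNA it was 11.60 ± 0.065 with scramble and 11.61 ± 0.14 with eIF6 shRNA, so the knockdown showed in polysomal RNA and not in subpolysomal RNA. Of 12 hepatocyte marker genes, 7 passed the detection filter, and Ahsg, Fgb, Fga and Fgg were among those that did not, so several defining markers of hepatocytes were near background in these cells. Levels below are log2 intensities after quantile normalization of the probes that passed the filter, and a gene is called when its limma p, adjusted by Benjamini-Hochberg over 19364 genes, is under 0.05. Bulk RNA cannot tell fewer cells of a type from less RNA per cell.

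The probes that carry the results are printed here because probes of the same gene did not all read alike. Positions are those of the deposited files (mm9), which do not give exon or UTR. Capitals mark the letters AATAAA, the usual polyadenylation signal near the 3′ end of an mRNA. Of the 13 probes, 3 hold it in the sense direction, and 4965 of all 39429 probes do (12.6%). For the 3 probes that hold it, and for the brighter Apoc3 probe, 30 bases are shown.
Apoe, chr7:20281732-20281791, minus strand: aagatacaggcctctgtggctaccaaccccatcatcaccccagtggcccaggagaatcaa
Apom, chr17:35267047-35267106, minus strand: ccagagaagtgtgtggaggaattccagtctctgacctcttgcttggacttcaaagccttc
Apob, A_55_P1957198, chr12:8012697-8012756, plus strand: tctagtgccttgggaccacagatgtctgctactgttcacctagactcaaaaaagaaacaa
Apob, A_52_P441070, chr12:8023194-8023253, plus strand: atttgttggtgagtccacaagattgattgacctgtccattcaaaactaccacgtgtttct
Apoc1, chr7:20274831-20274890, minus strand, bases 26 to 55: tcatcacagaccAATAAAaaacgtgtagaa
Apoc3, A_55_P2117155, chr9:46041134-46041193, minus strand, bases 22 to 51: catgctgtccctAATAAAgctggataagaa
Apoc3, A_55_P2013710, chr9:46043606-46043665, minus strand, bases 1 to 30: aagcaggcctgaggtccaaggcttgtcccc
Apoa2, A_55_P1966035, chr1:173156320-173156379, plus strand: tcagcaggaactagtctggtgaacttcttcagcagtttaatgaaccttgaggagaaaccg
Apoa2, A_55_P2178553, chr1:173156445-173156504, plus strand, bases 27 to 56: cctgttttctccAATAAAtgcggaaggagt

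The first question was which of these genes AML12 cells express at all. By at least 1 probe, 5 of the 10 were above background on every array (Apoa2, Apob, Apoc3, Apoe and Apom) and Apoc1 on 14 of 16. Apoa1, the main protein of high-density lipoprotein, was well above background on 2 arrays, both of eIF6 shRNA polysomal RNA, although its probe is printed 10 times per array. Apoa5 and Apoh, a phospholipid-binding plasma protein, were each above background on 2 polysomal arrays, 1 per shRNA. Apoa4, a protein of intestinal chylomicrons and of mouse liver, was above background on none.

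The intensities before normalization show the size of this gap. The Apob probes ranged from 276 to 2961 and from 286 to 1809 over the 16 arrays, and the Apoe probe from 153 to 422. The Apom probe ranged from 20.6 to 61.7 and the Apoc1 probe from 8.54 to 80.1. The Apoa4 probe read between 1.53 and 5.47, the Apoa1 probe between 2.68 and 12.5, the Apoh probe between 1.99 and 19.9, and the Apoa5 probe between 2.00 and 20.8. On the single arrays the lowest intensity that counted as well above background lay between 6.65 and 12.02. Probes bind with different strength, so these values say which probes were read and do not order the genes by level.

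**Figure D1:**
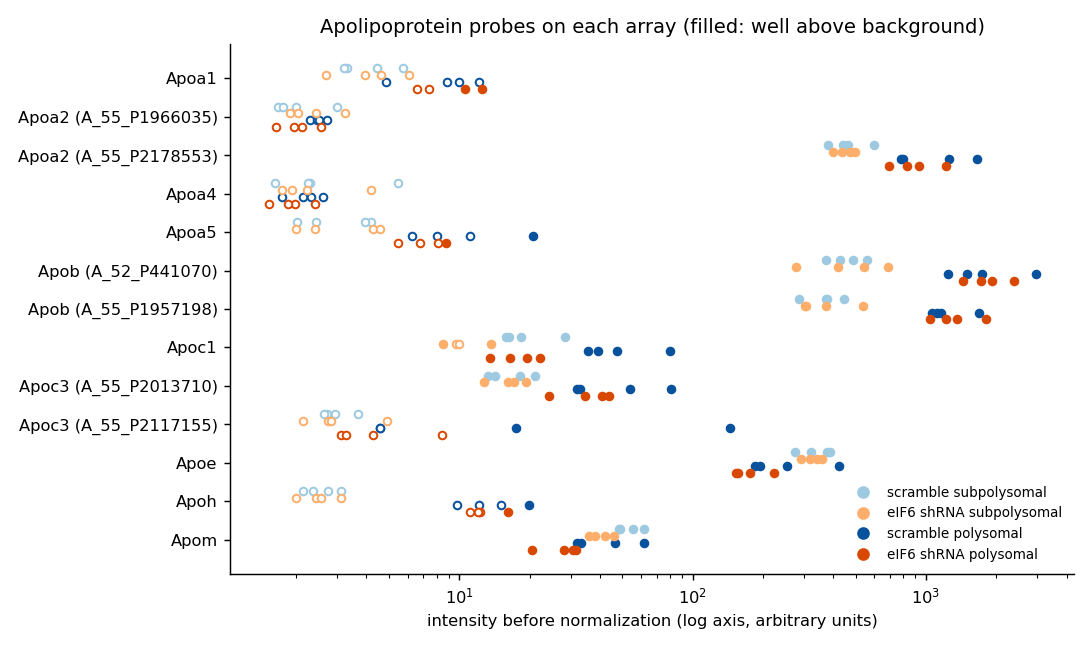
Intensity before normalization (log axis, arbitrary units) of each of the 13 apolipoprotein probes, 1 point per array, coloured by group; filled points were well above background on that array and open points were not. Apob and Apoe are filled on all 16 arrays, Apoa4 is open on all 16, and the probe pairs of Apoa2 and of Apoc3 read far apart.

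For Apoa2 and Apoc3 the probes disagreed on whether the gene was read. The Apoa2 probe A_55_P1966035 was above background on 0 of 16 arrays, with intensities of 1.65 to 3.23. A_55_P2178553, annotated to the same RefSeq transcript and starting 66 bases beyond the end of the other, was above background on all 16, with intensities of 381 to 1660. For Apoc3, A_55_P2117155, annotated to the RefSeq transcript, was above background on 2 arrays, both scramble polysomal. A_55_P2013710, annotated to an Ensembl transcript alone, was above background on all 16, with intensities of 12.8 to 80.5. The values of Apoa2 given below therefore rest on 1 of 2 probes. Apoc3 is given by probe, and as the mean of both probes where it counts among the 7 members tested. Which of the probes reports the mRNA was not tested.

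The comparison of eIF6 shRNA with scramble on polysomes asks which apolipoprotein mRNAs were more or less abundant on polysomes when eIF6 was depleted, a signal that follows the level of the mRNA as well as its loading with ribosomes. Of the 10 members, 7 passed the detection filter. Apoc1 was called lower and no member was called higher by limma, where 10.7% of all genes tested were called lower and 11.1% higher. At an unadjusted p under 0.05, 3 members were lower (Apoc1, Apoe and Apom) and 0 higher, against 15% and 16.7% of all genes. The median change of all genes was 0.016 on the log2 scale.

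Apoc1, an inhibitor of lipoprotein uptake and of lipoprotein lipase, fell on polysomes. Its log2 signal was 4.78, 4.83, 4.94 and 5.14 on the scramble polysomal arrays and 4.11, 3.84, 3.70 and 3.82 on the eIF6 shRNA polysomal arrays. The groups did not overlap. The change was -1.06 (95% interval -1.48 to -0.63, adjusted p = 0.00109), a 2.08-fold lower signal. The size depended on the processing, from -0.28 with normexp background correction to -1.71 with spike-in scaling, and the change was called in all 15 alternatives that kept the probe. It was below 0 in comparisons within each of the 4 slides, from -0.83 to -1.30.

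Apoc1 also fell in subpolysomal RNA, where it was the only member called lower and no member was called higher, against 12.3% and 11.8% of all genes (1 lower and 0 higher at an unadjusted p under 0.05, where 17.5% and 18.2% of all genes were). Its subpolysomal log2 signal was 4.60, 5.00, 4.76 and 4.33 with scramble and 3.95, 3.17, 4.27 and 3.85 with eIF6 shRNA. The lowest scramble value, 4.33, lay just above the highest eIF6 shRNA value, 4.27. The change was -0.86 (-1.29 to -0.44, adjusted p = 0.00514), or 1.82-fold. On 2 of the 4 eIF6 shRNA subpolysomal arrays (replicates 1 and 4) the probe was not well above background. Without replicate 2 of every group the change was -0.525 and no longer called (adjusted p = 0.0573).

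Markers of fibroblasts and stellate cells moved in the same direction as Apoc1. All 6 markers passed the filter. On polysomes 6 of 6 were called lower, against 10.7% of all genes. Their summed intensity fell from a range of 149700 to 248700 with scramble to 17270 to 25170 with eIF6 shRNA. In subpolysomal RNA 5 of 6 were called lower, against 12.3% of all genes, and the sum went from 113800 to 122800 down to 41660 to 57540. Among the 4 largest, Col1a2, a chain of type I collagen, changed by -3.53 on polysomes and Pdgfrb, a growth factor receptor of mesenchymal cells, by -3.10. For translational efficiency 2 of the 6 were called lower, among them Col1a2 at -2.31 (limma, adjusted p = 0.000791), against 1.11% of all genes. Macrophages also make Apoc1 and Apoe. Of 6 macrophage markers, 5 were tested and Lyz2 was not above background. Csf1r, a growth factor receptor, was called lower in both fractions (-1.67 and -1.17), where 10.7% and 12.3% of all genes were. The other 4 were not called in either fraction. The median change of the 5 was 0.0559 on polysomes and 0.0985 in subpolysomal RNA. The summed macrophage markers ranged from 4230 to 5637 with scramble and from 4446 to 5186 with eIF6 shRNA on polysomes, and from 3741 to 4030 and from 3853 to 4477 in subpolysomal RNA. Cd14 alone, at a log2 signal of 12.12 and 12.17 on polysomes, made up most of that sum, which therefore says little of the other macrophage markers. Of the 7 hepatocyte markers tested, 2 were called higher on polysomes, against 11.1% of all genes. Tat, a tyrosine-degrading enzyme of the liver, was among them (0.91). In subpolysomal RNA 1 was called higher, against 11.8% of all genes. In either fraction 0 were called lower, where 10.7% of all genes were on polysomes and 12.3% in subpolysomal RNA. The median change of the 7 was -0.205 on polysomes and 0.415 in subpolysomal RNA. Summed hepatocyte markers ranged from 26160 to 37250 with scramble and from 21910 to 30120 with eIF6 shRNA on polysomes. In subpolysomal RNA the sums were 22140 to 24510 and 19820 to 21020. Trf, at a log2 signal of 14.78 and 14.54 on polysomes, made up most of the polysomal sum. Of 5 markers of cholangiocytes or progenitors, Spp1 was called higher in subpolysomal RNA (0.84), where 11.8% of all genes were. None was called on polysomes, where 10.7% of all genes were called lower and 11.1% higher. The part of other cell types or cell states in the Apoc1 result was not tested.

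Apob, by contrast, was not called in either fraction. Its polysomal log2 signal, the mean of both probes, was 9.47, 9.59, 9.70 and 9.63 with scramble and 9.82, 9.42, 10.04 and 10.24 with eIF6 shRNA. Of the eIF6 shRNA arrays 3 lay above all scramble arrays and 1 below all of them. The polysomal change was 0.28 (-0.037 to 0.60, adjusted p = 0.218) and the subpolysomal change 0.19 (-0.13 to 0.50, adjusted p = 0.412). The separate probes, A_55_P1957198 and A_52_P441070, gave polysomal changes of 0.31 and 0.26. In subpolysomal RNA they gave 0.19 (-0.22 to 0.61) and 0.18 (-0.33 to 0.69), wider intervals than that of their mean. On replicate 4 of eIF6 shRNA subpolysomal RNA the first was highest of its group (9.86) and the second lowest (8.88). The polysomal interval of the mean leaves out a decrease of the size seen for Apoc1.

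Apoe was not called on polysomes or in subpolysomal RNA. Its polysomal log2 signal was 7.07, 7.01, 7.08 and 7.37 with scramble and 6.90, 7.07, 6.82 and 6.74 with eIF6 shRNA. A single eIF6 shRNA array, at 7.07, reached into the scramble range. The change was -0.25 (-0.46 to -0.038, adjusted p = 0.0922), and in subpolysomal RNA it was 0.14 (-0.075 to 0.35, adjusted p = 0.358). With arrays scaled to their 75th percentile the polysomal change was -0.32 and called (adjusted p = 0.0385). In the other 15 of 16 alternatives it was not called, and without replicate 4 it shrank to -0.12. Without replicate 4 the subpolysomal change was 0.22 and called (adjusted p = 0.0451), again in that alternative alone.

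Apom, which carries sphingosine-1-phosphate on high-density lipoprotein, had nearly the same polysomal change as Apoe. Its log2 signal there was 4.76, 4.74, 4.65 and 4.78 with scramble and 4.62, 4.47, 4.66 and 4.14 with eIF6 shRNA. The groups touched, since the highest eIF6 shRNA array (4.66) lay just above the lowest scramble array (4.65). The change was -0.26 (-0.52 to -0.0042, adjusted p = 0.151), and -0.23 (-0.49 to 0.028, adjusted p = 0.191) in subpolysomal RNA. At the 75th percentile scaling its polysomal change was -0.42 and called (adjusted p = 0.0488). In the other 15 of 16 alternatives it was not called. It shrank to -0.070 with normexp background correction and to -0.14 without replicate 4.

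The Apoa2 and Apoc3 probes that were above background on every array were not called in either fraction. Apoa2 changed by -0.035 on polysomes (-0.34 to 0.27) and 0.12 in subpolysomal RNA (-0.19 to 0.42). The brighter Apoc3 probe changed by -0.057 (-0.35 to 0.24) and 0.14 (-0.15 to 0.44). The RefSeq probe of Apoc3 stood at 1.63, 6.69, 1.61 and 3.10 on the scramble polysomal arrays and at 1.38, 1.52, 3.06 and 1.59 on the eIF6 shRNA polysomal arrays. Replicate 2 of scramble polysomal RNA alone was far above the rest, and the polysomal change of Apoc3 as the mean of both probes, -0.71 (-1.58 to 0.15, adjusted p = 0.257), contains that array. The Apoa1 probe stood between 2.08 and 3.14 on all polysomal arrays, with the shRNAs overlapping. It passed the detection filter through 2 eIF6 shRNA polysomal arrays alone.

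**Figure D2:**
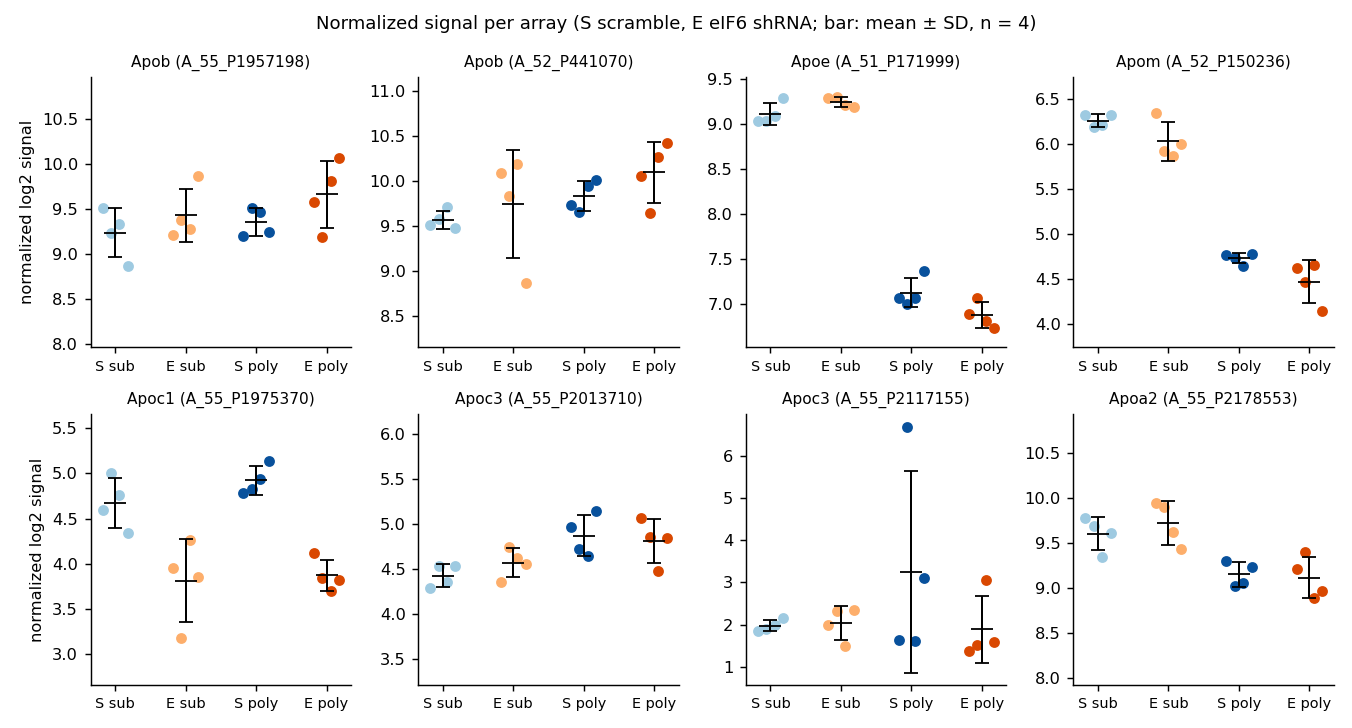
Normalized log2 signal of 8 apolipoprotein probes on each array (points) with the mean and SD of 4 arrays (black), for scramble (S) and eIF6 shRNA (E) in subpolysomal (sub) and polysomal (poly) RNA; axes differ between panels. Apoc1 is lower with eIF6 shRNA in both fractions, Apoe and Apom are lower in polysomal than in subpolysomal RNA with both shRNAs, and the Apoc3 probe A_55_P2117155 has 1 scramble polysomal array at 6.69.

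Translational efficiency was compared by subtracting the subpolysomal from the polysomal change, which asks whether polysomal RNA moved differently from subpolysomal RNA. Total RNA was not among the 16 arrays. No member was called in either direction, where limma called 1.11% of all genes lower and 0.403% higher. At an unadjusted p under 0.05, Apoe alone passed among the 7 members tested, against 7.34% of all genes lower and 5.16% higher. Its change was -0.38 (-0.68 to -0.086, unadjusted p = 0.0152, adjusted p = 0.244), and 13.3% of all genes had a lower value. For Apoc1 the value was -0.19 (-0.79 to 0.41), so the intervals of its changes in the 2 fractions do not separate them. Apob stood at 0.097 (-0.35 to 0.55), Apom at -0.032 (-0.40 to 0.33) and Apoa2 at -0.15 (-0.59 to 0.28). The brighter Apoc3 probe stood at -0.20 (-0.62 to 0.22). Eif6 itself changed by -1.07 and was called.

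**Figure D3:**
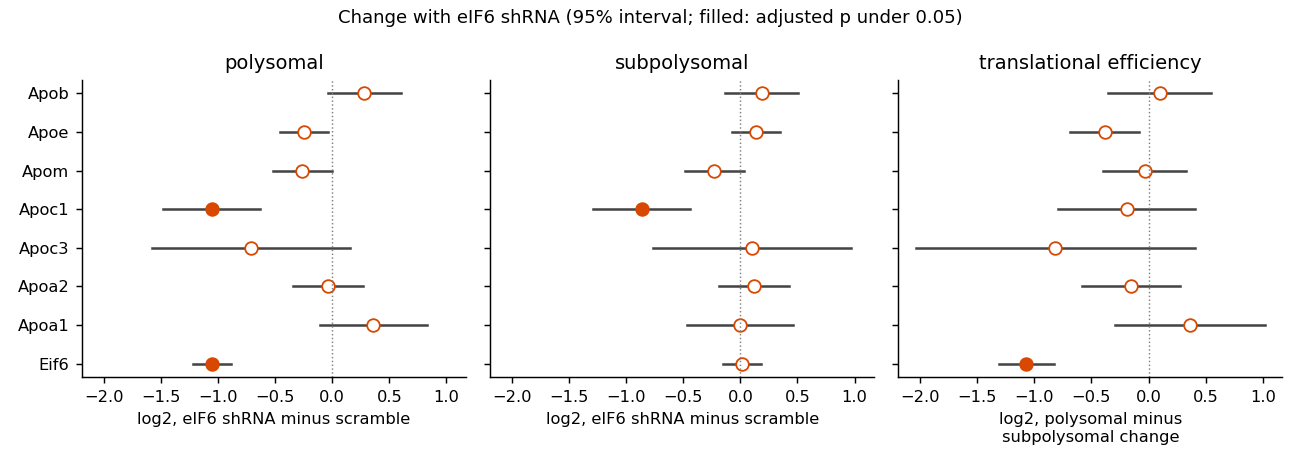
Change with eIF6 shRNA on the log2 scale for 7 apolipoprotein genes and Eif6 (points, with 95% intervals), in polysomal RNA, in subpolysomal RNA and as translational efficiency; filled points have an adjusted p under 0.05. Among the apolipoproteins only Apoc1 is filled, at -1.06 and -0.86, and none is filled for translational efficiency.

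The ratio of polysomal to subpolysomal signal compares the 2 fractions of cells with the same shRNA. After quantile normalization this ratio is relative to the other genes, whose median was 0.035 with scramble and 0.034 with eIF6 shRNA. Apoa2, Apoe and Apom were called lower in polysomal RNA with scramble, 3 of the 7 members tested, where 28.4% of all genes were called lower and 31.7% higher. With eIF6 shRNA Apoa2, Apoe and Apom were again called lower, where 28.7% of genes were called lower and 32.1% higher. No member was called higher with either shRNA, and 0 were at an unadjusted p under 0.05, where 33.5% of all genes were higher with scramble and 34% with eIF6 shRNA.

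Apoe showed the largest difference between fractions of the members tested. With scramble its log2 signal was 9.04, 9.04, 9.09 and 9.29 in subpolysomal RNA against 7.01 to 7.37 on polysomes. With eIF6 shRNA it was 9.30, 9.30, 9.21 and 9.19 in subpolysomal RNA against 6.74 to 7.07 on polysomes. The fractions lay far apart on every array. The difference was -1.98 (-2.20 to -1.77, adjusted p = 5.72e-10) with scramble and -2.37 (-2.58 to -2.16, adjusted p = 1.18e-10) with eIF6 shRNA, 3.96-fold and 5.17-fold. With scramble 3.16% of all genes had a lower ratio, and with eIF6 shRNA 1.69%. The 10 spots of the Apoe probe had a median SD of 0.07 on the log2 scale within an array.

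Apom followed. Its subpolysomal log2 signal was 6.32, 6.19, 6.21 and 6.32 with scramble and 6.34, 5.92, 5.86 and 6.001 with eIF6 shRNA, all above its polysomal values of 4.14 to 4.78. The difference was -1.53 (-1.78 to -1.27, adjusted p = 5.99e-08) with scramble and -1.56 (-1.82 to -1.30, adjusted p = 6.20e-08) with eIF6 shRNA. With scramble 5.74% of genes had a lower ratio.

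Apoa2, read by A_55_P2178553, showed a smaller difference of -0.45 (-0.76 to -0.15, adjusted p = 0.0131) with scramble and -0.61 (-0.91 to -0.30, adjusted p = 0.00192) with eIF6 shRNA. Its fractions did not overlap with either shRNA. Without replicate 2 the scramble difference was -0.38 and not called (adjusted p = 0.0703), and without a detection filter it was -0.247 and not called (adjusted p = 0.0999). The Apob difference was 0.19 (-0.13 to 0.51) with scramble and 0.29 (-0.028 to 0.61) with eIF6 shRNA, and without replicate 2 the latter was 0.45 and called (adjusted p = 0.0286). For Apoc1 it was 0.25 (-0.17 to 0.68) and 0.059 (-0.36 to 0.48). The brighter Apoc3 probe was higher on polysomes with scramble, 0.44 (0.15 to 0.74, adjusted p = 0.0124 in the fit of single probes), and stood at 0.24 (-0.053 to 0.54) with eIF6 shRNA.

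How the fractions are put on 1 scale sets the sign of such a ratio. With scramble the median of all genes moved to -0.34 at the 75th percentile scaling, to 1.52 with spike-in scaling and to 1.38 with quantile normalization within each fraction. The split of all called genes moved with it, from 5498 lower and 6133 higher to 8477 and 4111, 396 and 13412, and 899 and 15785. With eIF6 shRNA the medians were -0.37, 1.30 and 1.41, and the splits went from 5553 and 6225 to 8912 and 3987, 494 and 11224, and 840 and 15406. Relative to the median gene, Apoe stood between -2.10 and -1.57 with scramble and between -2.51 and -1.86 with eIF6 shRNA over all 16 alternatives. Apom stood between -1.80 and -0.68 and between -1.93 and -0.63, and Apoa2 between -0.55 and -0.20 and between -0.71 and -0.34. The absolute Apoa2 ratio turned positive with spike-in scaling (1.29 and 0.94) and within each fraction (1.18 and 1.02). The Apoc1 ratio turned negative and was called at the 75th percentile scaling, at -0.45 and -0.96. Apoe was not called with spike-in scaling, at -0.35 with scramble and -0.96 with eIF6 shRNA. Apom was not called there either, at -0.26 and -0.62.

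**Figure D4:**
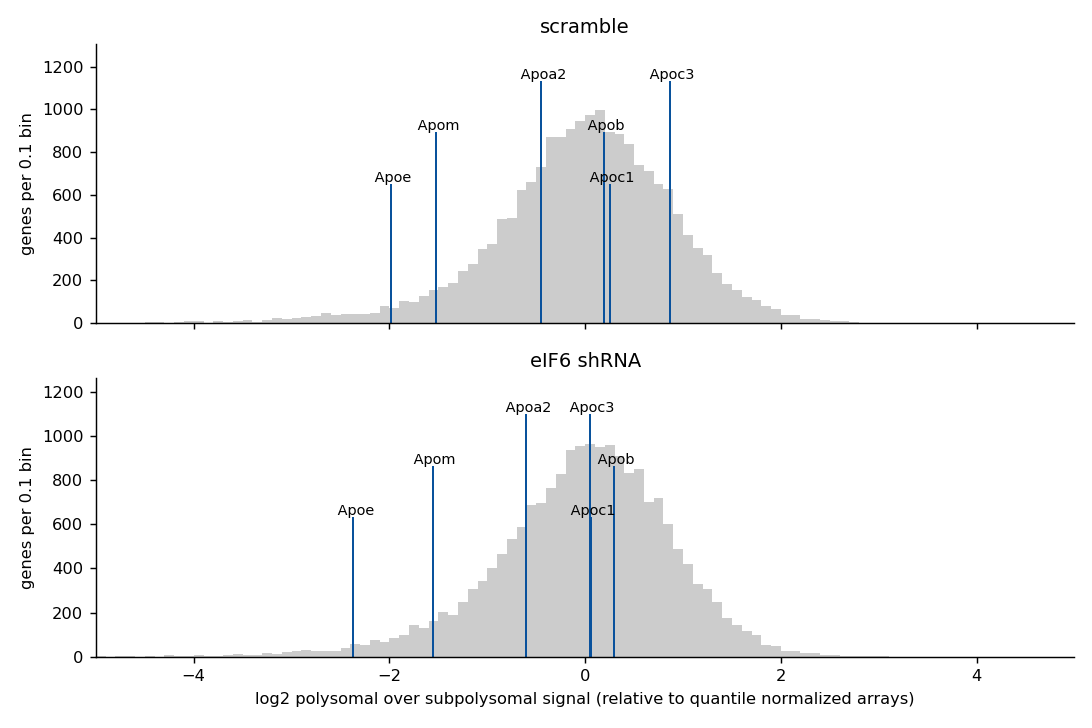
Histogram of polysomal minus subpolysomal log2 signal for all genes tested (grey, genes per bin of 0.1) with 6 apolipoprotein genes marked by blue lines, for scramble (top) and eIF6 shRNA (bottom); the height of a line has no meaning and Apoc3 is the mean of its 2 probes. Apoe lies at -1.98 and -2.37 and Apom at -1.53 and -1.56, both left of most genes, and Apob and Apoc1 lie near the middle.

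Apoe and Apoc1 are neighbours. In mouse the genes Apoe, Apoc1, Apoc4 and Apoc2 follow one another, and their probes lie on chromosome 7 of mm9 with 24705 bases between the outermost starts, all on the minus strand. Apoc2 is the cofactor that lipoprotein lipase needs, and Apoc4 a minor apolipoprotein of very-low-density lipoprotein. Neither is among the 10 genes.

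Apoc2 (chr7:20257027-20257086) also fell in both fractions. Its log2 signal was 8.98, 8.84, 8.82 and 8.91 on scramble polysomal arrays and 7.49, 7.49, 7.38 and 7.04 on eIF6 shRNA polysomal arrays. In subpolysomal RNA it was 8.68, 8.68, 8.77 and 8.88 with scramble and 7.44, 7.49, 7.27 and 7.61 with eIF6 shRNA. In both fractions every eIF6 shRNA array lay below every scramble array. The changes were -1.54 (adjusted p = 6.25e-08) and -1.30 (adjusted p = 5.45e-07), and the probe was above background on all 16 arrays. Apoc4 was above background on 4 scramble and 1 eIF6 shRNA polysomal arrays and on no subpolysomal array. Its polysomal log2 signal ranged from 3.165 to 4.83 with scramble and from 2.145 to 3.21 with eIF6 shRNA, and it was not called (adjusted p = 0.106). Along the cluster, the probe of Apoe therefore stood at -0.25 on polysomes and that of Apoc1, 6901 bases away, at -1.06. The Apoc4 probe, 18123 bases away and near background, stood at -0.97, and that of Apoc2, 24705 bases away, at -1.54. In subpolysomal RNA the Apoc4 probe stood at 0.017 and was above background on no array.

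Apoc1 minus Apoe was compared between the shRNAs by a two-sided exact permutation test, in which 4 against 4 arrays cannot go below p = 0.0286. The comparison was not planned, and the same arrays had already given Apoc1 as called lower and Apoe as not called. Its p values are therefore a description and no independent support for a difference. On polysomes the change of Apoc1 was lower than that of Apoe by 0.81, with Apoc1 minus Apoe at -2.21 ± 0.067 with scramble and -3.01 ± 0.20 with eIF6 shRNA (SD, n = 4, exact p = 0.0286, adjusted over both fractions 0.0571). In subpolysomal RNA the difference was -0.999 (exact p = 0.0571, adjusted 0.0571). All 4 polysomal arrays with eIF6 shRNA lay below all those with scramble, and neither fraction passed 0.05 after adjustment.

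**Figure D5:**
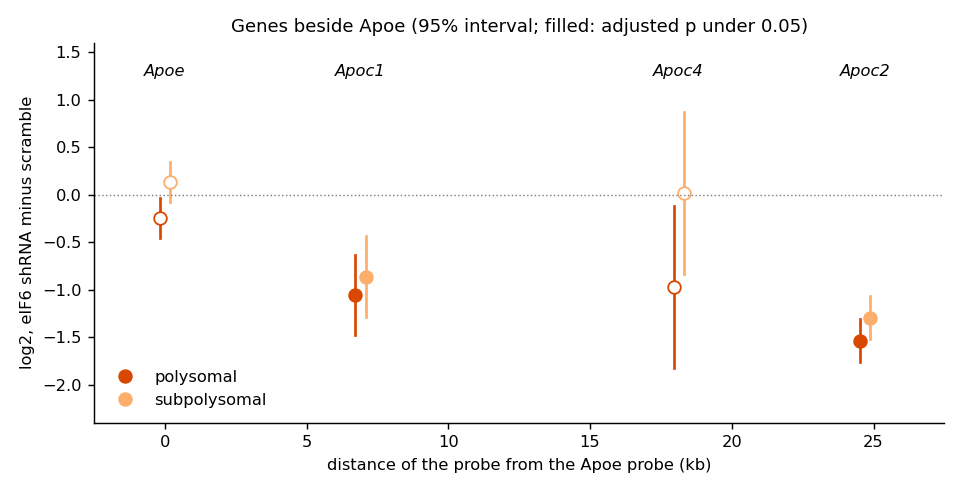
Change with eIF6 shRNA (log2, with 95% intervals) in polysomal and subpolysomal RNA for Apoe and its neighbours Apoc1, Apoc4 and Apoc2. Each is plotted at the distance of its probe from the Apoe probe in kb, and filled points have an adjusted p under 0.05. Apoc1 and Apoc2 are filled in both fractions, between -0.86 and -1.54, and Apoe and Apoc4 are open; the Apoc4 probe was above background on 5 of the 16 arrays.

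The rest of the apolipoprotein family was read through a list of 14 further genes, of which 11 were tested. On polysomes 3 were called lower, 1 higher and 7 not, where 10.7% of all genes were called lower and 11.1% higher. The median was -0.12. Besides Apoc2, Apol9b fell by 0.59 (adjusted p = 0.0216) and Apod, a lipocalin that binds small lipids, by 0.44 (adjusted p = 0.042), a call that held in 8 of 16 alternatives (-1.06 to -0.12). Apon rose by 1.27 on polysomes (adjusted p = 7.85e-05) and 0.79 in subpolysomal RNA (adjusted p = 0.00424). In subpolysomal RNA 1 was called lower and 1 higher, against 12.3% and 11.8% of all genes, and the median was 0.017 against 0.025. None was called for translational efficiency, and 0 passed at an unadjusted p under 0.05, where 7.34% of all genes were lower and 5.16% higher.

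Genes that assemble and secrete lipoproteins were mixed. Of 24 tested out of 27, 4 were called lower and 2 higher on polysomes, against 10.7% and 11.1% of all genes. In subpolysomal RNA 2 were called lower and 3 higher, against 12.3% and 11.8%. The medians were -0.12 and 0.076. Ces1g, a carboxylesterase linked to triglyceride secretion, had the largest change, -2.11 on polysomes, where it was above background on all 8 arrays. In subpolysomal RNA it was called lower too, with 3 scramble arrays and 1 eIF6 shRNA array above background. Creb3l3, a membrane-bound transcription factor of the liver, changed by -1.38 on polysomes and was called there alone. Mia2, which helps load large cargo at the endoplasmic reticulum, rose by 1.38 and 0.83. Surf4, the receptor that carries lipoproteins out of the endoplasmic reticulum, fell by 0.49 and 0.37.

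Of 20 tested genes of lipoprotein receptors and uptake (24 listed), 2 were called lower and 4 higher on polysomes. The shares of all genes there were 10.7% and 11.1%. In subpolysomal RNA 4 were called lower and 6 higher, against 12.3% and 11.8% of all genes. The medians were 0.063 and 0.038. Sorl1, a sorting receptor that binds Apoe, was called higher in both fractions. On polysomes it was above background on 3 scramble and 4 eIF6 shRNA arrays, and its change there lay between 0.457 and 2.27 over the alternatives. In subpolysomal RNA it was not above background on any scramble array and was on all 4 eIF6 shRNA arrays. With scramble values raised to the lowest detected signal of their array, the rise there was 1.47-fold. Over the alternatives the subpolysomal change lay between 0.216 and 2.06 and was called in 14 of 15. Stab1, a scavenger receptor, rose by 0.95 and 1.00. Mylip, the ligase that marks the low-density lipoprotein receptor for degradation, fell by 0.82 and 0.80. Scarb2, a lysosomal membrane protein, was called in subpolysomal RNA (0.88) and stood at 0.41 on polysomes.

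In lipoprotein remodelling and lipid efflux, 18 of 25 genes were tested. On polysomes 4 were called lower and 2 higher, against 10.7% and 11.1% of all genes. In subpolysomal RNA 3 were called higher and 0 lower, against 11.8% and 12.3% of all genes. At an unadjusted p under 0.05 these were 4 and 1, against 18.2% and 17.5%. The medians were -0.054 and 0.054. Lpl, lipoprotein lipase, was the single gene of the apolipoprotein, lipoprotein and transcription factor lists called for translational efficiency, at -1.72 (adjusted p = 0.0335). That call held in 9 of 16 alternatives (-2.07 to -1.03). Lpl fell by 1.67 on polysomes and stood at 0.060 in subpolysomal RNA. Abca1, which lipidates Apoa1, was above background on 3 arrays, all scramble polysomal, so no size is given for its lower polysomal signal. Npc2, which moves cholesterol out of lysosomes, rose by 0.75 in subpolysomal RNA.

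Transcription factors known to act on apolipoprotein genes gave 2 lower and 8 higher calls among 31 tested on polysomes. The shares of all genes there were 10.7% and 11.1%. In subpolysomal RNA 3 were called lower and 6 higher, against 12.3% and 11.8% of all genes. The medians were 0.17 and 0.034. Ppargc1a, a coactivator of hepatic metabolic genes, rose by 1.99 and 0.95. Onecut1, a hepatocyte factor, rose by 1.20 and 0.95, and Cebpa, another hepatocyte factor, by 0.86 and 1.20. Hnf4a, the factor bound at many apolipoprotein promoters, was not called (-0.25 and -0.21). None of the 31 was called for translational efficiency. At an unadjusted p under 0.05, 1 was lower and 6 higher, against 7.34% and 5.16% of all genes.

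For the 5 members seen on every array, the 3 genes with the most similar pattern over the 16 arrays were found by Pearson correlation among 14565 other genes. The 16 points share 2 fractions and 2 shRNAs, so a gene with a large fraction difference correlates with every other such gene, and the values are a description. Apoe was most like Rad9a, Rltpr and Dmpk (r of 0.995, 0.995 and 0.994) and Apom most like Mss51, Blm and Magef1 (0.990, 0.989 and 0.989). Apoe and Apom correlated at 0.973 with each other. Apob was most like Ttc13 (0.934), and Apoc3 had no match above 0.786. Apoa2 was most like Rxrg (0.988), an unnamed transcript NAP113695-1 (0.981) and a pseudogene of an olfactory receptor (0.975), although its difference between fractions was small. The longest run of bases that A_55_P2178553 shares with a probe of these 3 genes is 6.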

How the data were processed

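The members and gene lists were chosen with earlier results of these data known. The authors deposited, for each of 16 one-colour Agilent arrays, the background-corrected intensity of every spot as written by Feature Extraction, with no normalization across arrays. A second deposited table holds their log2 values after quantile normalization, and its columns share a median of 4.636. The submitters' processing notes name Feature Extraction 10.7.7.1 and the file headers 10.7.3.1. Probes kept the gene names and mm9 positions given in the files.

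Files were read in R 4.3.3 with the package data.table (1.17.8). Uneven and outlier spots were dropped (45 values of kept probes missing), and spots of 1 probe were averaged. The detection filter asked for a signal well above background on 2 or more arrays of some group (25259 probes, 19364 genes, 19337 with a value on all arrays). Log2 intensities were quantile normalized, and kept probes of a gene averaged. Limma 3.58.1 was fitted with 4 group means and 5 contrasts. The permutation test of Apoc1 against Apoe was not among the planned comparisons. Eif6, all members and up to 4 called genes with the largest change per list are named, except for genes that are not reported here. Of the members, 3 were not kept and are described by intensity. The fit was tested on simulated data.

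Alternatives were other scalings (75th percentile, 7 spike-in probes, quantile within each fraction or before the filter), normexp with offset 50, 3 detection filters, the brightest probe, the authors' log2 table, slide or replicate number as a block, each replicate left out, and, added after seeing the data, a fit of single probes. The 4 slides each held 1 array of every group. Arrays were of different samples, and 0 pairs held identical values. Plots used matplotlib 3.10.9 (Python 3.11.15).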

Additional observations from a re-analysis of the deposited data

Results flagged for a closer look

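Within groups of 4 arrays, 28 gene values and 16 values of single Apob and Apoc3 probes were examined for 1 array standing apart by Dixon's test, and 3 were found. Chance gives about 1 in 20. The Apoc3 mean of both probes in eIF6 shRNA polysomal RNA had replicate 3 apart, at 3.77 against 3.19 to 3.23, with a gap of 0.939 of the range. Its RefSeq probe A_55_P2117155 had the same array apart, with a gap of 0.879. That probe was not well above background on any array of the group. The Apoa1 probe had replicate 1 of eIF6 shRNA subpolysomal RNA apart, at 1.92 against 2.61 to 2.71, with a gap of 0.866, and it too was not above background there.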

How the results depend on the processing

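No member was called for translational efficiency under any of the 16 alternatives. On polysomes the members called lower were 3 at the 75th percentile scaling (Apoc1, Apoe, Apom) and 0 when a probe had to be above background on all 16 arrays, a filter that removes Apoc1. In all 15 alternatives that kept Apoc1 its polysomal change was called, from -1.71 with spike-in scaling to -0.28 with normexp. In subpolysomal RNA the members called lower were 0 with spike-in scaling, where Apoc1 changed by -1.0 (adjusted p = 0.652), and 0 with the filter on all 16 arrays. Leaving out single replicates, the number called lower was 0 to 1 and the number called higher 0 to 1. Between the fractions of scramble cells, 0 members were called lower with spike-in scaling. Members called higher were 5 with spike-in scaling and 5 within each fraction, 3 without a detection filter, 1 each (Apoc3) with normalization before the filter, normexp, both stricter filters, the brightest probe and the authors' table, and 0 to 1 with a replicate left out. With eIF6 shRNA, 0 were called lower with spike-in scaling. Members called higher were 4 within each fraction, 3 without a detection filter, 1 each with spike-in scaling, normalization before the filter, the filter on all 16 arrays, the authors' table and the slide as a block, and 0 to 1 with a replicate left out. Signs turned for Apoa2 with spike-in scaling (1.29 with scramble, 0.937 with eIF6 shRNA) and within each fraction (1.18 and 1.02), and for Apoc1 at the 75th percentile scaling (-0.448 and -0.965). Except for the shifts of scale given above, the cause was not tested. Spike-in scaling also moved the median of all genes by -0.474 on polysomes and -0.227 in subpolysomal RNA, and the split of called genes there to 1056 lower and 101 higher, and 345 and 43, from 2072 and 2144, and 2390 and 2294.

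The main fit did not pair arrays by replicate number. Deviations from the group means correlated at -0.157 to 0.412 between arrays of the same number, and 3 of 16 arrays matched best with their own number outside their group. Such correlations cannot settle whether the polysomal and subpolysomal RNA of 1 number came from the same gradient, which was not tested. With the replicate block the members called lower were 1 on polysomes, 1 in subpolysomal RNA and 3 between fractions with either shRNA. Over all genes the block gave 2003 lower and 2087 higher calls on polysomes. Signal over background limits Apoa1, Apoa4, Apoa5, Apoh and the RefSeq probe of Apoc3.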
